A study of Chlorocebus sabaeus with 45 samples.

Results

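The 9 genes described here are MS4A1, CD79A, CD79B, CD22, PAX5, BLK, BANK1, CR2 and EBF1, which are widely used to recognise B lymphocytes. They were taken from the expression tables by gene symbol, with no measured value in the rule, and each symbol was found, which gave 9 of the 33994 genes in the tables and 9 of the 18753 genes that passed the filter on low values. The tables came from whole blood of 15 juvenile male vervets (Chlorocebus sabaeus), each caught from the wild on St. Kitts and each from a different troop. Each was bled at capture on day 0 (field, sedated with ketamine and xylazine) and again on day 3 and day 14 (quarantine, single housing, sedated with dexmedetomidine and midazolam), so that there were 15 libraries at each of the 3 time points. Day 0 thus differed from both later days in place and sedation as well as in time, which cannot be told apart, whereas day 3 and day 14 shared both. There was no group of animals that stayed in the field, and the comparisons ask how blood expression moved over the animals' transfer to captivity.

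B lymphocytes carry a membrane immunoglobulin, the B cell receptor, whose signal enters the cell through the chains CD79A and CD79B. Src-family and other kinases pass the signal on, CD22 dampens it, and the complement receptor CR2 lowers the threshold for it. EBF1 and PAX5 are transcription factors that commit precursors to the B lineage and keep mature B cells in that state, and PAX5 is switched off when a B cell becomes an antibody-secreting plasma cell.

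Values are FPKM, fragments scaled to the length of the gene and to the library's total on genes. Between 13216275 and 31469332 fragments fell on genes in each library, and the medians of the time points were close (22963940, 22754349 and 22758493 in order of time). The share of fragments taken by the 20 most abundant genes had a median of 10.03% in the day 0 libraries, 13.9% on day 3 and 25.5% at the last time point. FPKM were therefore divided by a TMM factor (trimmed mean of M values), which matches libraries on the typical gene, and log2(value + 0.1) was tested with limma. For day 14 vs. day 0, all tested genes together had a median log2 fold change of −0.05 with TMM, against −0.36 without it and 0.15 when libraries were matched on 12 genes that all white cells express (leukocyte scaling). The levels and differences below are on the TMM scale unless another is named. In whole blood, fewer B cells and less RNA of a gene per B cell cannot be told apart.

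In the deposited FPKM, which are per length and can be compared between genes, the 9 genes spanned a wide range of levels. CD79B was the highest of the 9 in 45 of 45 libraries, with a median of 125 FPKM (range 28.0 to 355). MS4A1, which encodes the surface protein CD20, came next at a median of 70.2 FPKM and was above CD79A in 44 of 45 libraries. CD79A (25.7 FPKM) and the adaptor gene BANK1 (25.4 FPKM) were neighbours that did not separate, since CD79A was the higher in 33 libraries and the log2 ratio of the pair, 0.23 ± 0.48 (SD, 45 libraries), was smaller than its spread. The same held for CD22 (6.81 FPKM) and the Src-family kinase gene BLK (6.33 FPKM), of which CD22 was the higher in 23 libraries. CR2 (4.29 FPKM), EBF1 (2.46 FPKM) and PAX5 (1.78 FPKM) closed the order, and EBF1 was above PAX5 in 40 of 45 libraries. All 9 genes were above 0 in every library, and the thinnest value, that of EBF1 in animal 7 on day 3, rested on 64 fragments.

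On day 3 vs. day 0 none of the 9 genes passed the threshold (limma, Benjamini-Hochberg adjusted p under 0.05), and none had an unadjusted p under 0.05. Of all tested genes, 5.84% were called higher and 6.21% lower in that comparison. The log2 fold changes of the 9 genes lay between −0.15 (MS4A1) and 0.37 (BLK), with adjusted p-values of 0.246 to 0.992. The near absence of a mean change was made of animals that moved in opposite directions. All 9 genes were higher on day 3 than on day 0 in animals 7, 10, 11, 13 and 15, and all 9 were lower in animals 5, 12 and 14. These 8 animals showed the same without TMM and with leukocyte scaling. Averaged over the 9 genes, the change within an animal was 0.15 ± 0.70 on the log2 scale (SD, n = 15) and ran from −0.92 in animal 14 to 1.24 in animal 15.

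**Figure D1:**
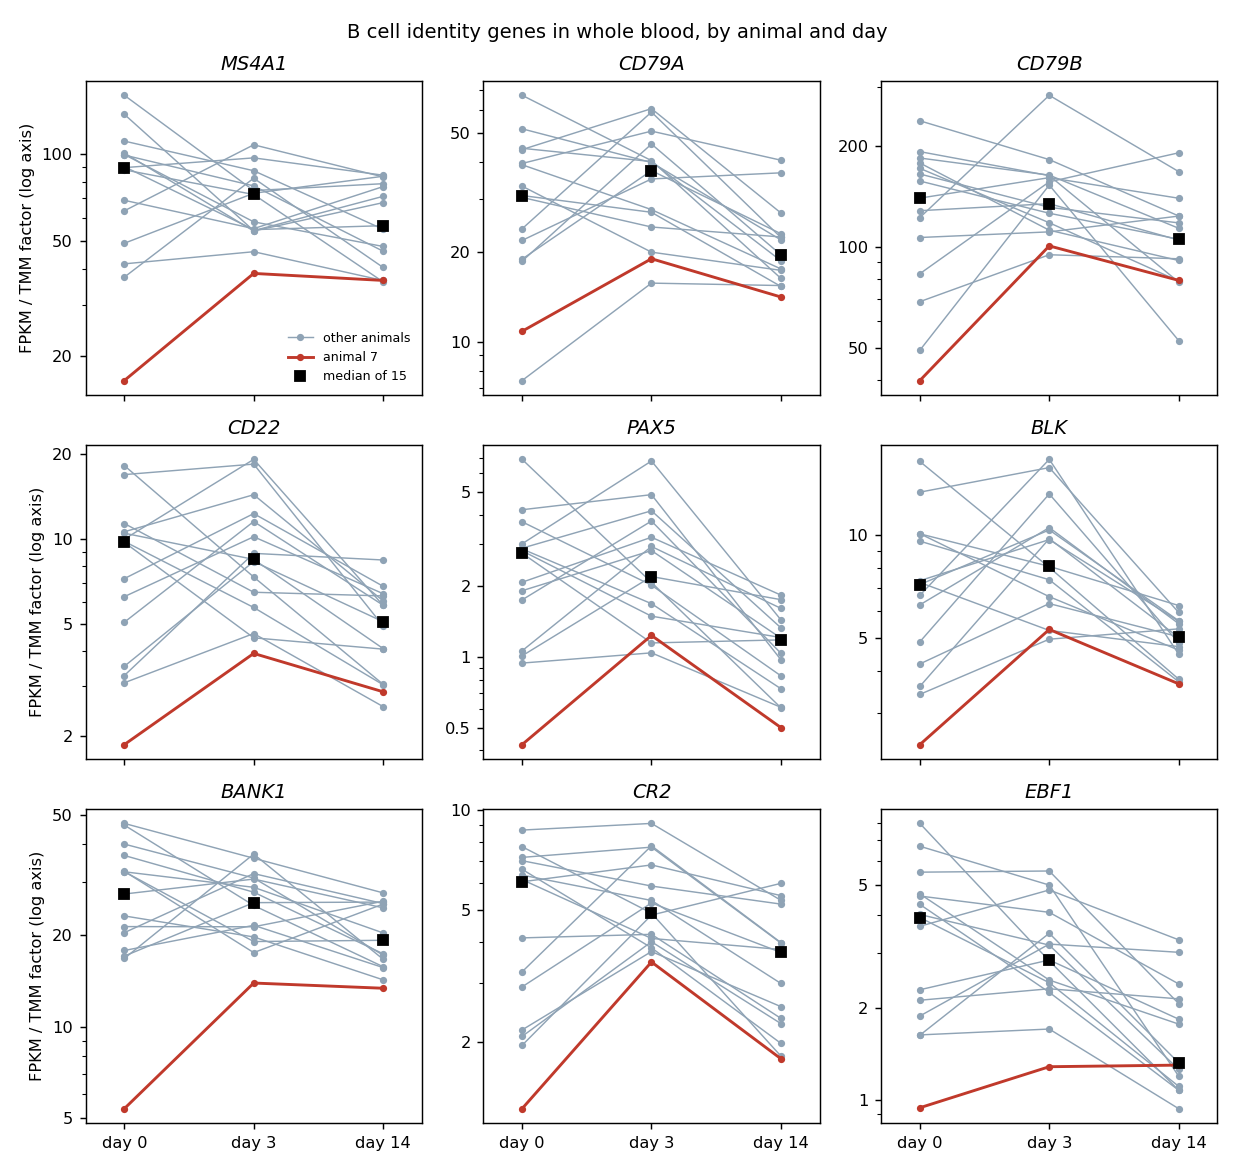
Level of each of the 9 genes in each of the 15 animals on day 0, day 3 and day 14, as FPKM divided by the TMM factor on a log axis, with 1 line per animal, animal 7 in red and black squares at the median of the 15 animals. Animal 7 starts lowest on day 0 for 8 of the 9 genes, and the spread between animals is narrower on day 14 than on day 0, most visibly for BLK.

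Day 14 brought lower values. Relative to day 0, the log2 fold change was negative for all 9 genes, with a median of −0.42, although CD79B turned to 0.04 with leukocyte scaling. The 2 transcription factor genes, PAX5 and EBF1, passed the threshold, against 19.3% of all tested genes called lower and 16.8% called higher, so the share of the 9 genes called was close to the background of falling genes. CD22 and BLK passed as well when the animal was a replicate block in the fit, which made 4 of 9 beside a background of 23.3%. With RNA integrity added to that fit, EBF1 alone was called beside 11.5%, as PAX5 (adjusted p = 0.0787 from limma), CD22 (log2 fold change −0.32, adjusted p = 0.435) and BLK (−0.28, adjusted p = 0.407) did not pass. In the study's sample list RNA integrity was higher on average on day 14 than on day 0, and its part in the B cell values was not tested beyond these fits.

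EBF1 had a lowest, median and highest level of 0.945, 3.93 and 7.95 on day 0, of 1.28, 2.86 and 5.56 on day 3 and of 0.938, 1.32 and 3.32 on day 14. The time points overlapped, but 9 of the 15 animals were higher on day 0 than any animal on day 14. EBF1 fell on day 14 vs. day 0 by 0.96 on the log2 scale, in 12 of 15 animals (standard error 0.24, limma adjusted p = 0.00132). PAX5 ran from 0.424 over a median of 2.75 to 6.88 on day 0, from 1.04 over 2.19 to 6.77 on day 3, and from 0.501 over 1.18 to 1.83 on day 14. On day 0, 10 of 15 animals were above the highest day 14 value of PAX5. It fell by 0.94 (standard error 0.27, limma adjusted p = 0.00585), also in 12 of 15 animals, with the steepest change in animal 14 (−3.30) and the largest opposite change in animal 10 (0.74).

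Among the genes of the receptor and its surface partners, CD79A had a median level of 30.9 on day 0 (range 7.41 to 67.0), 37.4 on day 3 (15.7 to 60.4) and 19.6 on day 14 (14.1 to 40.6). Its partner chain CD79B had medians of 140, 134 and 105. Neither passed on day 14 vs. day 0 (log2 fold change −0.42, adjusted p = 0.158, and −0.20, adjusted p = 0.466, both from limma). With the replicate block the adjusted p from limma was 0.0552 for CD79A and 0.347 for CD79B. Each was lower in 9 of 15 animals. CD22, an inhibitory receptor that binds sialic acid, had medians of 9.74 (1.86 to 18.3), 8.48 (3.93 to 19.2) and 5.09 (2.54 to 8.43). On day 0, 8 of 15 animals lay above every day 14 value of CD22, yet the log2 fold change of −0.58 (standard error 0.26) had an adjusted p of 0.0825 from limma, or 0.0275 with the replicate block. CR2 was at medians of 6.06, 4.88 and 3.71 (log2 fold change −0.36, adjusted p = 0.235), and MS4A1 at 89.4, 72.2 and 56.3 (−0.36, adjusted p = 0.198). For both, animal 7 was lowest on day 0, with 1.26 for CR2 and 16.4 for MS4A1.

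Of the 2 signalling genes, BLK had the most uniform end point. Its level ran from 2.43 over a median of 7.17 to 16.5 on day 0, from 4.96 over 8.11 to 16.7 on day 3, and only from 3.66 over 5.02 to 6.22 on day 14. All 15 animals thus came within a factor of 1.70 of each other on day 14, against 6.79 on day 0. The log2 fold change of BLK on day 14 vs. day 0 was −0.44 (standard error 0.20, adjusted p = 0.0794 from limma, or 0.0416 with the replicate block), and it was lower in 11 of 15 animals. BANK1, a scaffold that links the receptor to calcium release, was at medians of 27.4, 25.6 and 19.3, with a log2 fold change of −0.33 (adjusted p = 0.194).

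The comparison within captivity, day 14 vs. day 3, was more even across animals. Of the 9 genes 5 fell, against 7.27% of all tested genes called lower and 7.10% called higher. PAX5 fell by 1.12 on the log2 scale (standard error 0.27, adjusted p = 0.00898 from limma), BLK by 0.80 (0.20, adjusted p = 0.00976) and EBF1 by 0.84 (0.24, adjusted p = 0.0177). CD22 fell by 0.85 (0.26, adjusted p = 0.0288) in 15 of 15 animals, and CD79A by 0.68 (0.23, adjusted p = 0.0418) in 14 of 15. CR2 was lower in 14 of 15 animals and lay just outside the threshold (log2 fold change −0.64, adjusted p = 0.0544 from limma), which it passed with the replicate block (adjusted p = 0.0112), so that 6 of 9 genes were then called beside a background of 13.2%. CD79B (−0.41, adjusted p = 0.149), BANK1 (−0.33, adjusted p = 0.242) and MS4A1 (−0.21, adjusted p = 0.532) did not pass, nor did they with the replicate block (limma adjusted p = 0.0645, 0.122 and 0.380). Averaged over the 9 genes the change within an animal was −0.66 ± 0.35 (SD, n = 15) and was negative in 14 of 15 animals, the exception being animal 10 at 0.01. It was negative in 15 of 15 without TMM and in 14 of 15 with leukocyte scaling. Relative to day 0 the same average was −0.51 ± 0.83 and was negative in 9 of 15 animals.

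**Figure D2:**
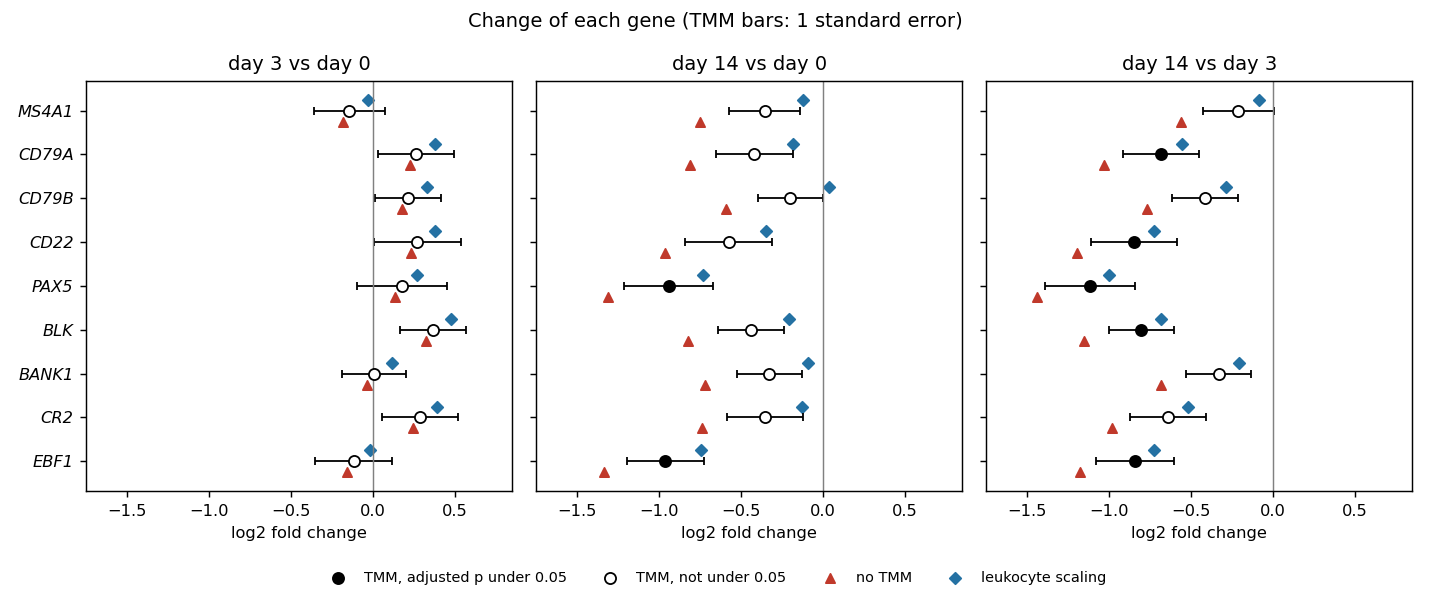
Log2 fold change of the 9 genes in the 3 comparisons, with circles for the TMM scale (filled where the adjusted p is under 0.05, bars of 1 standard error), red triangles without TMM and blue diamonds with leukocyte scaling. On day 14 vs. day 3 all values lie left of 0 under the 3 scalings, and on day 14 vs. day 0 CD79B lies just right of 0 with leukocyte scaling.

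How many genes passed depended on the scaling, as the plot of fold changes by scaling shows. Without TMM 8 of 9 genes were called lower on day 14 vs. day 0 beside 41.8% of all tested genes, and 8 of 9 on day 14 vs. day 3 beside 35.2%. With leukocyte scaling PAX5 and EBF1 were called on day 14 vs. day 0 beside 8.30%, and PAX5 alone on day 14 vs. day 3 beside 1.29%. Under the latter, BLK was at an adjusted p of 0.0503, EBF1 at 0.0706, CD22 at 0.101 and CD79A at 0.164, with log2 fold changes of −0.68, −0.73, −0.73 and −0.56. With both leukocyte scaling and the replicate block, a fit chosen after the data were seen, PAX5 (adjusted p = 0.00787 from limma), BLK (0.0244), EBF1 (0.0254) and CD22 (0.0398) were called on day 14 vs. day 3 beside 3.00%. When RNA integrity entered the fit as a covariate, CD22 (adjusted p = 0.0621 from limma) and CD79A (0.0644) did not pass on day 14 vs. day 3, which left 3 genes beside 2.95%. The log2 fold changes of CD22 and CD79A in that fit were −0.82 and −0.71, against −0.85 and −0.68 without the covariate. Both passed with block and covariate together (0.0422 and 0.0326), and 5 genes were then called beside 4.06%.

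One library stood apart. Animal 7 on day 0 held the lowest value of the time point for 8 of the 9 genes, and for CD79A only animal 11 was lower. Its mean log2 level over the 9 genes was 1.91, and the next lowest day 0 library, that of animal 11, was at 2.67. The day 0 library of animal 7 had a TMM factor of 0.70 and a mean log2 level of 7.60 over the neutrophil list and 7.32 over the erythroid list. The neutrophil level was not particular to it, since animals 11 (7.44) and 15 (7.78), with the next lowest day 0 means of the 9 genes, were similar, and the part of these in the low B cell values was not tested. Without animal 7, 6 genes passed on day 14 vs. day 0 (MS4A1, CD22, PAX5, BLK, BANK1 and EBF1) beside 18.2% of all tested genes called lower, without animal 11 it was 4 beside 18.4%, and without animal 10 it was 3 beside 19.3%. On day 14 vs. day 3 the count fell from 5 to 3 (PAX5, BLK and EBF1) when animal 2, 3, 8, 9 or 12 was left out, beside 2.84%, 4.08%, 2.37%, 3.15% and 3.70% of all tested genes called lower.

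The 9 genes moved together from animal to animal. On day 0 the correlation between 2 of them across the 15 animals lay between 0.81 and 0.98 for the 36 pairs (median 0.91), on day 3 between 0.31 and 0.97 (0.69), and on day 14 between 0.25 and 0.91 (0.74). These values are descriptions, since the genes of a library share its depth and scaling. In animals 1, 3, 5, 6, 8, 9, 12 and 14 all 9 genes were lower on day 14 than on day 0, and in animals 7 and 10 all 9 were higher. The number of animals with all 9 genes lower was 8 without TMM and 7 with leukocyte scaling, and the number with all 9 higher was 2 and 4. On the TMM scale the average over the 9 genes was higher on day 14 than on day 0 in animals 2, 7, 10, 11, 13 and 15, and these held the 6 lowest day 0 averages, a relation to which the day 0 value contributes on both sides. Animal 14, with the highest day 0 level for 5 of the genes, had the most negative average change (−2.10).

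**Figure D3:**
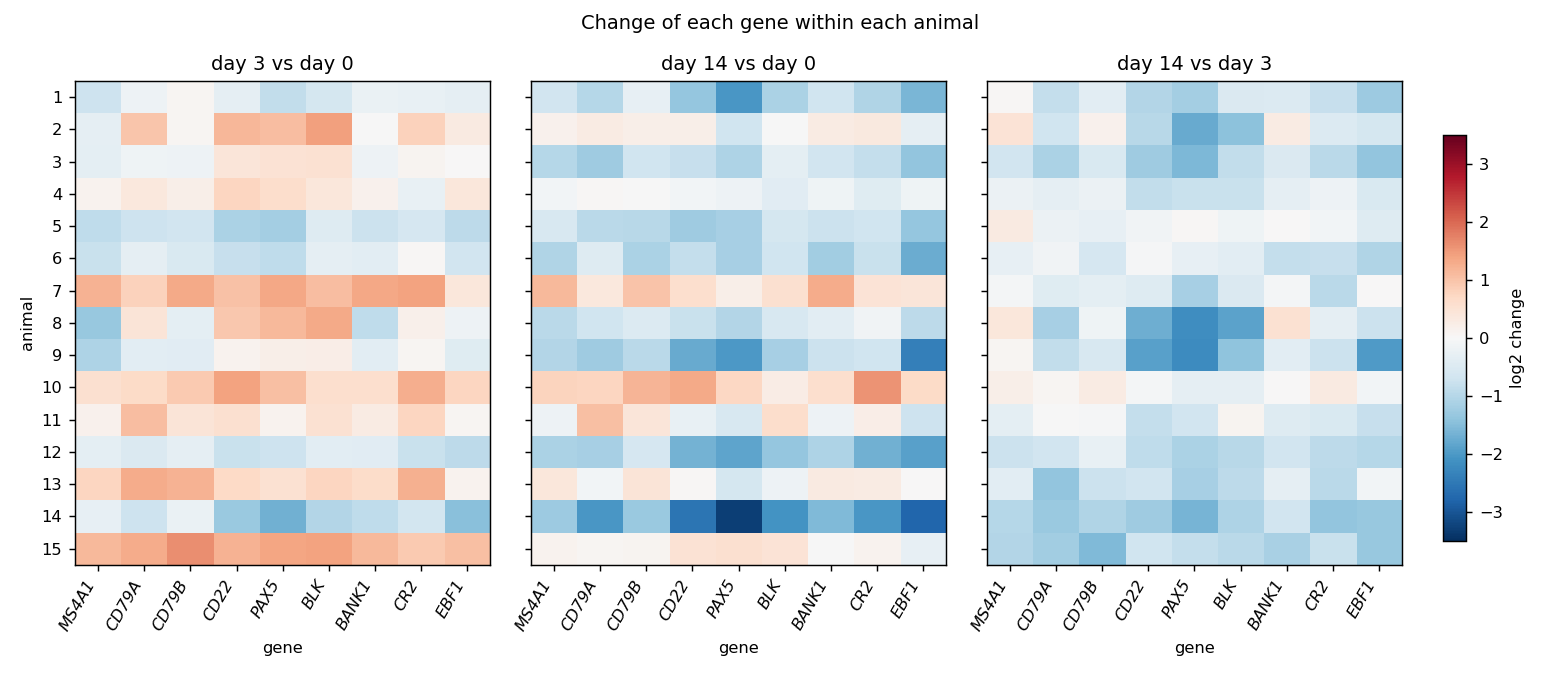
Log2 change of each of the 9 genes (columns) within each of the 15 animals (rows) in the 3 comparisons, red for higher and blue for lower at the later day. Whole rows tend to share a colour on day 3 vs. day 0 and day 14 vs. day 0, with red and blue rows side by side, whereas day 14 vs. day 3 is blue in nearly every row.

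For each of the 9 genes the animals differed more on day 0 than on day 14. On the log2 scale the SD over 15 animals was 0.75 to 0.95 on day 0, 0.40 to 0.77 on day 3 and 0.24 to 0.59 on day 14. Without animal 7 the ranges were 0.52 to 0.82, 0.34 to 0.76 and 0.22 to 0.56, and the ratio of the day 0 to the day 14 SD remained above 1 for each gene (1.31 for EBF1 to 3.10 for BLK). Such narrowing was not particular to the 9 genes. The summed level of the neutrophil list ran from 1482 to 42664 on day 0 and from 553 to 4392 on day 14. For the plasma cell list it ran from 251 to 493 and, more widely, from 313 to 953. The spread over all tested genes was not computed. After removal of the time point means, between 20.4% (BLK) and 40.4% (CD79A) of a gene's variance on the log2 scale lay between animals, the rest being within animals over time.

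Within this shared movement the genes did not keep fixed proportions. The change of a gene minus the mean change of the other 8, taken within each animal, is nearly free of the scaling between libraries. Between day 0 and day 14 it was −0.51 ± 0.32 on the log2 scale for EBF1 and −0.49 ± 0.45 for PAX5 (SD, n = 15), negative in 14 of 15 animals for each. For CD79B it was 0.35 ± 0.34 and positive in 12 of 15 animals. The values without TMM were −0.50, −0.47 and 0.34. Between day 3 and day 14 the gene farthest on the positive side was MS4A1 (0.50 ± 0.45), positive in 15 of 15 animals, followed by BANK1 (0.36 ± 0.48) in 11, while PAX5 was at −0.52 ± 0.54 and negative in 12. On day 3 vs. day 0 MS4A1 was the most negative relative to the others (−0.33 ± 0.57, in 12 of 15 animals), so that from day 0 to day 14 it came to only 0.17 ± 0.34, positive in 9 of 15. EBF1 was also negative on day 3 vs. day 0 (−0.30 ± 0.27, in 13 of 15), whereas PAX5 was near 0 (0.03 ± 0.53, negative in 7 of 15). The transcription factor genes thus sat at one end of the order and CD79B at the other on day 14 vs. day 0, with no test made of these differences.

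**Figure D4:**
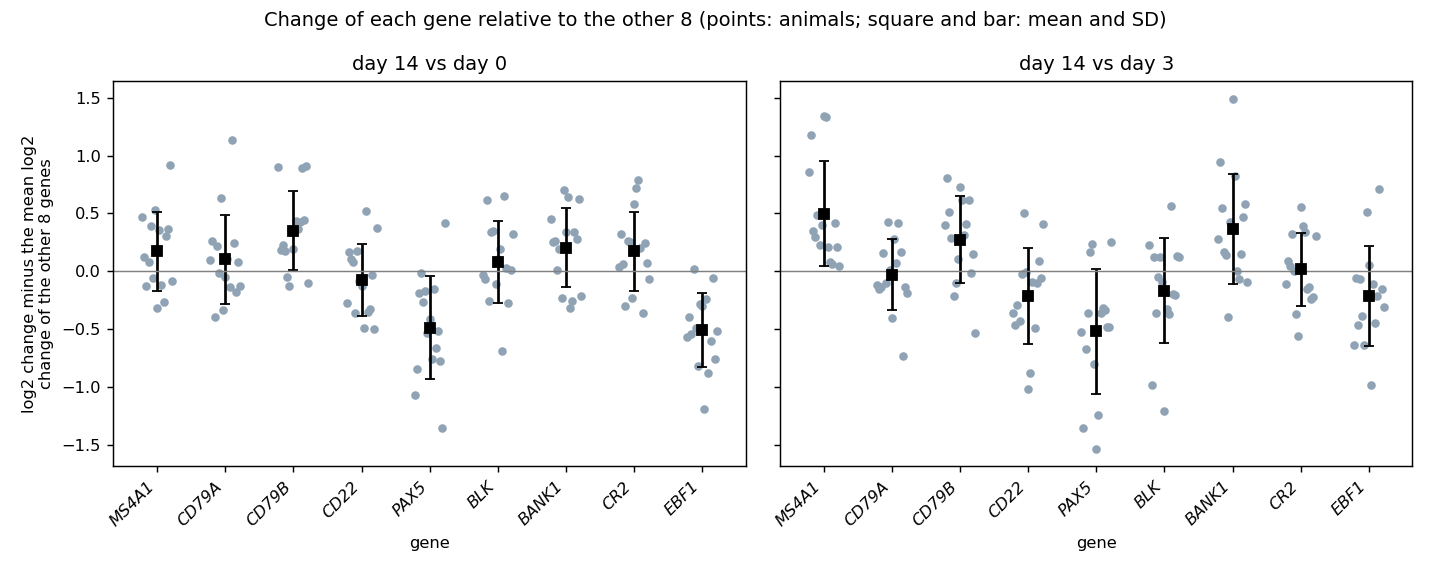
Change of each gene minus the mean change of the other 8 genes, on the log2 scale, on day 14 vs. day 0 and day 14 vs. day 3, with grey points for the 15 animals and a square and bar for their mean and SD. PAX5 and EBF1 lie below 0 in 14 of 15 animals on day 14 vs. day 0, and MS4A1 lies above 0 in 15 of 15 on day 14 vs. day 3.

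Outside the 9 genes, the 7 genes most like them were named by their correlation with the mean of the standardised 9 genes over the 45 libraries, after the time point means were removed. They were FCRL1, an Fc receptor-like protein of B cells (r = 0.97), XKRX (0.95), SWAP70, a protein of B cell switching and motility (0.95), the costimulatory receptor gene CD40 (0.94), FAM129C (0.94), the uncharacterised LOC103230281 (0.93) and TCL1A (0.93). Each of these 7 had a negative log2 fold change on day 14 vs. day 0 on the TMM scale, from −0.39 (LOC103230281) to −0.87 (XKRX), and XKRX (adjusted p = 0.00603) and SWAP70 (adjusted p = 0.00765) passed the threshold. For comparison, r was 0.43 for the T cell gene CD3E, −0.33 for the neutrophil gene CSF3R and −0.37 for IGJ, the joining chain of secreted immunoglobulin.

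Among 25 other tested surface and restricted genes of B cells, 8 fell and none rose on day 14 vs. day 0, beside 19.3% of all tested genes called lower and 16.8% called higher, with a median log2 fold change of −0.43 against −0.05 for all tested genes. CD24 had the smallest adjusted p of this list (log2 fold change −1.82 with a standard error of 0.37, limma adjusted p = 1.60e-04), followed by the tetraspanin CD37 (−0.45, standard error 0.09, adjusted p = 1.62e-04) and RALGPS2 (−0.72, standard error 0.17, adjusted p = 6.37e-04). CD24 is also made by neutrophils, and over the 45 libraries its r was −0.34 with the 9 genes and 0.73 with the neutrophil list, whereas RALGPS2 was at 0.86 and −0.45. CD37 tracked neither closely (0.23 and 0.18). FCRL1, CD40 and TCL1A, with an r of 0.97, 0.94 and 0.93 with the 9 genes, were not called (limma adjusted p = 0.0685, 0.164 and 0.103). FCRLA, with an r of 0.90, was called (limma adjusted p = 0.0385). In the replicate block fit 13 of the 25 genes fell and 1 (FCRL3) rose, beside 23.3% of all tested genes called lower and 20.7% called higher, and with RNA integrity added to that fit 7 fell and none rose, beside 11.5% called lower. With leukocyte scaling 2 fell and 1 (FCRL3) rose, beside 8.30% called lower and 28.3% called higher. Between day 3 and day 14, 8 of the 25 fell and none rose (median −0.51), beside 7.27% of all tested genes called lower. Between day 0 and day 3 it was 1 of 25 that fell (median 0.11), which did not exceed the background of 6.21%.

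Of 23 tested genes of B cell receptor signalling, 13 fell and 1 rose on day 14 vs. day 0 (median −0.41), beside 19.3% of all tested genes called lower and 16.8% called higher. The inhibitory adaptor gene DOK3 (−1.51, adjusted p = 4.61e-05 from limma) and the protease gene MALT1 (−0.42, adjusted p = 7.80e-05) fell, and CD81, a tetraspanin that many cell types express, rose (0.90, adjusted p = 9.33e-05). The list tracked the 9 genes loosely, as 16 of its 23 genes had a higher r with the neutrophil list than with the 9 genes, DOK3 among them (0.85 and −0.35). Of 17 tested transcription factors of the B lineage beyond PAX5 and EBF1, 9 fell and 1 rose beside the same shares (median −0.44). RUNX1 (−0.74, adjusted p = 8.36e-06 from limma), BCL6 (−1.62, adjusted p = 4.75e-05) and IKZF1 (−0.44, adjusted p = 5.65e-05) had the smallest adjusted p of the factors that fell. RUNX1 had an r of 0.62 with the neutrophil list and −0.32 with the 9 genes, BCL6 0.89 and −0.44, and IKZF1 −0.04 and 0.24. Of the 17 factors, 13 had a higher r with the 9 genes and 4 with the neutrophil list. With leukocyte scaling, under the same shares of all genes as for the surface genes, 5 receptor signalling genes fell and 2 (CD81 and PIK3R1) rose, and 4 transcription factors fell and 1 (TCF3) rose. PTPRC is in the receptor signalling list and also among the 12 genes behind leukocyte scaling, so its value under that scaling is partly set by it.

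Most of the tested genes of plasma cells, the secreting end of the same lineage, went the other way. Of 13 tested plasma cell genes 9 rose on day 14 vs. day 0 and none fell, beside 16.8% of all tested genes called higher (median 0.55 with TMM, 0.15 without it and 0.78 with leukocyte scaling). XBP1 (0.15), PRDM1 (−0.02), IRF4 (0.04, also in the transcription factor list) and CD38 (0.02) were not called (limma adjusted p of 0.341 to 0.936). IRF4 and CD38 had an r of 0.64 and 0.71 with the 9 genes, against a median of −0.15 for the plasma cell list. TNFRSF17, the receptor BCMA of plasma cells, rose by 1.72 on the log2 scale (standard error 0.28, adjusted p = 1.20e-05 from limma) in 14 of 15 animals, IGJ by 1.65 (0.31, adjusted p = 5.57e-05) in 14 and MZB1, which assists immunoglobulin assembly, by 0.90 (0.20, adjusted p = 5.32e-04) in 12. Within animals, the mean of the 9 B cell genes minus the mean of the plasma cell list changed by −1.16 ± 0.89 (SD, n = 15) and was lower in 14 of 15 animals, and on day 14 vs. day 3 by −1.04 ± 0.56 in 14 of 15. On day 3 vs. day 0 none of the plasma cell genes passed (median 0.22).

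T cell genes gave a lymphocyte reference. Of 20 tested T cell genes 2 rose (CD3D and CD8A) and 1 fell (BCL11B) on day 14 vs. day 0. Both counts lay below the shares of all tested genes, 16.8% called higher and 19.3% called lower. The median was −0.09, and CD3E was at −0.20 (adjusted p = 0.353 from limma). The 9 genes changed by −0.52 ± 0.75 relative to the T cell list within animals on day 14 vs. day 0, lower in 13 of 15, and by −0.71 ± 0.40 on day 14 vs. day 3, lower in 14 of 15. Against NK cell genes, of which 7 of 10 rose beside the same 16.8%, the difference was −1.49 ± 0.94 and was lower in 14 of 15 animals.

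Genes of red cell precursors and of neutrophils moved as well, and their part in the B cell values was not tested. All 12 erythroid genes rose on day 14 vs. day 0 (median 2.73), beside 16.8% of all tested genes called higher. Their summed level went from a range of 468 to 24197 on day 0 to 3754 to 44977 on day 3 and 7714 to 67358 on day 14. Of 15 neutrophil genes 14 fell (median −1.38) beside 19.3% called lower, CSF3R by 1.08 (adjusted p = 0.00319 from limma). The summed level of the neutrophil genes was 1482 to 42664 on day 0, 612 to 7014 on day 3 and 553 to 4392 on day 14. In the day 14 vs. day 3 comparison, where 5 of the 9 B cell genes fell, none of the neutrophil genes passed (median −0.29). In it 3 of 12 erythroid genes rose (median 1.06), beside 7.10% called higher. Every T cell, NK cell, plasma cell, platelet and erythroid marker in the tables was above 0 in each of the 45 libraries, and none of the listed markers of any type was at 0 throughout.

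**Figure D5:**
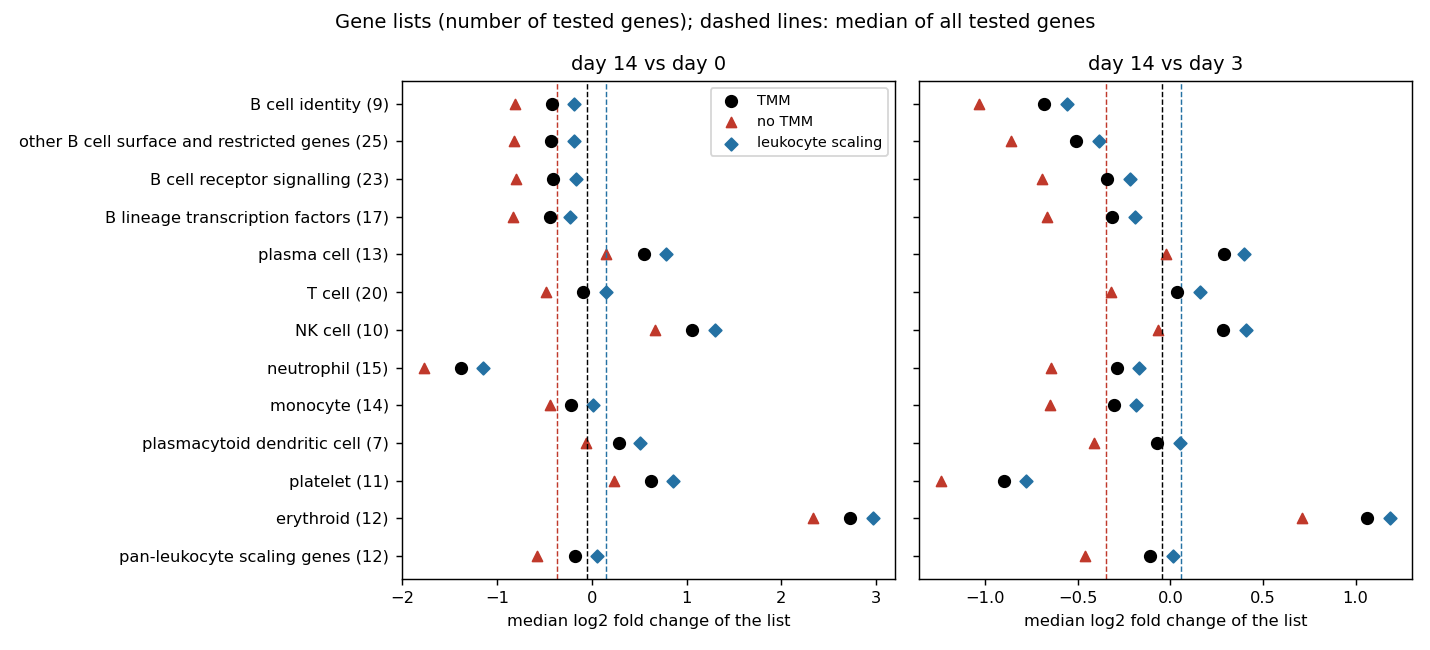
Median log2 fold change of each gene list on day 14 vs. day 0 and day 14 vs. day 3 with TMM (black), without it (red) and with leukocyte scaling (blue), with the number of tested genes in parentheses and dashed lines at the median of all tested genes under each scaling. The 4 B cell lists lie left of the dashed line of their own colour in both comparisons, and the plasma cell list lies right of it.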

How the data were processed

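The deposited tables give FPKM for each gene in each of the 45 libraries. Per the labels and the study's methods, PAXgene blood RNA was depleted of ribosomal and globin RNA, sequenced as stranded paired-end libraries, demultiplexed (bcl2fastq 2.17), aligned with STAR to the Chlorocebus sabaeus build, and counted with HTSeq, from which the authors made the FPKM values. The strand setting of the counting and any sequencing batch are not given in the sources used here.

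FPKM are not counts, so limma (3.58.1, R 4.3.3) was used on log2(FPKM/TMM factor + 0.1), with 1 mean per time point over all 45 libraries, no covariate and Benjamini-Hochberg adjustment over all tested genes. Every gene above 0 in at least 3 libraries held whole multiples of 1 fragment's worth (tolerance 0.02 fragments), which gave the fragment totals, the TMM factors (trims 0.3 and 0.05) and the filter of CPM (fragments scaled to each library's sum) above 0.5 in at least 3 libraries. At that limit a gene rests on 6.61 to 15.7 fragments, depending on the library. On simulated data for day 14 vs. day 0 over 18753 genes, 89.5% of 200 changed genes were recovered with 12 false calls. These figures hold for the simulated data alone. They are no power or error rate for the B cell genes, whose spread between animals the simulated data were not shown to match. Libraries of the same number came from 1 animal. With the time point means removed they correlated at a mean r of 0.33 across genes, against −0.02 between animals, so the animal was used as a replicate block in an alternative fit. Other alternatives were no TMM, upper quartile or leukocyte scaling, pseudocounts of 1 and 0.01, no filter, the RNA integrity number of the study's sample list as a covariate, and each animal left out.

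The 9 genes and all lists were chosen with earlier results of these data known, so their counts are descriptions. Genes named from the other lists were up to 3 called genes with the smallest adjusted p on day 14 vs. day 0, plus CD3E, IGJ and CSF3R, and FCRL3, PIK3R1 and TCF3 were named after their values were seen. One further gene that the rule names is not reported here. Of the list entries 187 matched by symbol, 3 by RefSeq gene ID and 11 not at all. The RefSeq table is of assembly mChlSab1.0.hap1, another build than the study's, so no coordinates are given. The last time point is day 14 in the sample labels, and the series text gives another day for it.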

Additional observations from a re-analysis of the deposited data

How the results depend on the processing

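On day 3 vs. day 0 no member of the 9 was called under any alternative. On day 14 vs. day 0, 2 genes were called, against 8 without TMM, 4 with the animal as a replicate block, 1 (EBF1) with the replicate block and the RNA integrity covariate, and 9 with the replicate block and no TMM. On day 14 vs. day 3, 5 were called, against 8 without TMM, 1 with leukocyte scaling, 3 with the RNA integrity covariate, 6 with the replicate block, 5 with the replicate block and the RNA integrity covariate, 4 with the replicate block and leukocyte scaling, and 9 with the replicate block and no TMM. For the fit with block and no TMM no share of all tested genes was computed, so its counts of 9 stand without a background. With TMM left out and no block, 41.8% of all tested genes were called lower on day 14 vs. day 0. That share was 35.2% on day 14 vs. day 3. Leaving out each animal gave 0 to 0, 2 to 6 and 3 to 6 genes. The other B cell list counts on day 14 vs. day 0 were 8 of the surface genes (15 without TMM, 3 with leukocyte scaling, 14 with the replicate block, 7 with the replicate block and the RNA integrity covariate, 7 to 11 with an animal left out), 14 of the receptor signalling genes (7 with leukocyte scaling, 14 to 15) and 10 of the transcription factors (5 with leukocyte scaling, 8 to 12). The cause of these shifts was not tested. The sign changed for CD79B on day 14 vs. day 0 with leukocyte scaling (0.038, with and without the replicate block) and for BANK1 on day 3 vs. day 0, near 0 throughout: −0.035 without TMM, with and without the replicate block, −0.0063 with the upper quartile, −0.0017 with a pseudocount of 1, −0.048 with the RNA integrity covariate, −0.014 with block and covariate, and −0.091 to 0.069 with an animal left out. No sign changed on day 14 vs. day 3. The 2 fits with block and scaling together were chosen after seeing the data.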

Other observations

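Platelet genes were called higher first: 11 of 11 tested genes rose from day 0 to day 3 (median log2 fold change 1.52, or 1.48 without TMM), beside 5.84% of all tested genes. From day 0 to day 14, 2 of 11 rose beside 16.8% (median 0.62), and from day 3 to day 14, 6 of 11 fell beside 7.27% (median −0.90). TUBB1, the beta tubulin of platelets, rose by 1.48 on day 3 (adjusted p = 0.00134 from limma), and the chemokine gene PPBP by 1.36 (adjusted p = 0.0138). Monocyte genes split, with 4 of 14 called higher on day 3 (beside 5.84%), and 1 called higher and 5 lower at the last time point (beside 16.8% and 19.3%). CD14 (−0.80, adjusted p = 0.00112) and VCAN (−0.74, adjusted p = 0.00676) of classical monocytes fell on day 14, and CX3CR1, which non-classical monocytes and NK cells both express, rose (0.88, adjusted p = 0.0102).

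Against day 0, 4 of 10 NK cell genes were called higher by day 3 (beside 5.84% of all tested genes) and 7 by day 14 (beside 16.8%). KLRF1 was higher on day 14 than on day 0 in 15 of 15 animals (1.29, standard error 0.21, adjusted p = 1.03e-05 from limma). Of 7 tested genes of plasmacytoid dendritic cells 1 rose and 1 fell on day 14 vs. day 0, beside 16.8% and 19.3% of all tested genes. The gene that rose was GZMB, which is also in the NK cell list (1.49, adjusted p = 3.40e-05), and the one that fell was TCF4 (−0.48, adjusted p = 0.00919), a transcription factor that B cells express as well. Of the 12 genes behind leukocyte scaling, 5 were called lower on day 14 vs. day 0 with TMM, beside 19.3% of all tested genes. The smallest adjusted p were those of LAPTM5 (−0.45, adjusted p = 1.76e-04 from limma), PTPRC (−0.54, adjusted p = 2.83e-04) and CD53 (−0.42, adjusted p = 0.00259).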
